A study of Mus musculus with 2 samples.

Results

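Mir101a and Mir101b are the genes of the miR-101 family taken up here, 2 of the 2202 microRNA genes counted in the series. They were chosen by symbol through the GENCODE M21 annotation, by a rule that uses no measured value, though with earlier results of these data known. Both were detected in both libraries. The series is microRNA-seq of total RNA from tissue labelled as a layer of hippocampus, and its small RNA libraries hold fragments under 30 bases. It has 1 group of 2 libraries, labelled biological replicates 2 and 1, each from a male B6CASTF1/J mouse aged 36 days. The strain is a first-generation hybrid with C57BL/6J and CAST/EiJ parents, and no treatment, mutation or transgene is labelled. The replicates are separate biosamples, both listed under the same donor. P-values between them set the difference of these 2 libraries against counting error, with an assumed spread added only where stated. That difference may be technical.

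A microRNA gene is transcribed as a longer RNA, from which a hairpin and then a short duplex are cut. One arm of the duplex, named 5p or 3p for its side of the hairpin, is loaded into an Argonaute protein. The loaded arm binds messenger RNAs mainly through its seed, bases 2 to 8, and lowers their translation and stability. In the mouse hippocampus miR-101 is known to restrain excitation: blocking it in young animals leaves networks hyperexcitable, with targets that include the chloride importer Slc12a2, the axonal motor Kif1a and the scaffold Ank2. Elsewhere its best known target is Ezh2, the methyltransferase of the Polycomb repressor.

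The mature arms show how alike the products of the genes are, and they are given with the seed in capitals, 5′ to 3′, from RefSeq on GRCm38.p6. Both members had entries in that table.
miR-101a-3p: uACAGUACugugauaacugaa
miR-101b-3p: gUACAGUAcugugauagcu
miR-101a-5p: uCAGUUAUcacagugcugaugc
miR-101b-5p: uCGGUUAUcaugguaccgaugcu
The 3p arms share a run of 15 bases, uacaguacugugaua. The annotated arm of Mir101b starts 1 base earlier than that of Mir101a, so the same bases fall in a different register and the seeds are ACAGUAC for miR-101a-3p and UACAGUA for miR-101b-3p. Laid along the Mir101b hairpin, the 21 bases of miR-101a-3p differ in 1 place, A16G, with positions counted from 1 at the 5′ end of miR-101a-3p. The 5p arms are less alike: 17 of 22 aligned bases are identical, and the longest shared run is 7 bases.

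The hairpins place these arms in their precursors, with both annotated arms in capitals.
Mir101a: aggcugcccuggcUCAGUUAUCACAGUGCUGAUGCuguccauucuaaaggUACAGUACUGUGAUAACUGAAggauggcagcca
Mir101b: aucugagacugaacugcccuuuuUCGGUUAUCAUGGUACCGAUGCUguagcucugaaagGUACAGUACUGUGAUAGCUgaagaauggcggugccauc
Over 81 aligned bases the hairpins are 81.5% identical, and the longest run they share is 20 bases, most of it in the 3p arm. The counts are per gene, so the 5p and 3p arms cannot be told apart in what follows.

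Another annotated gene of the family bears on how reads are assigned. Mir101c (ENSMUSG00000106183.1, chr9:3038669-3038743, minus strand) has the following annotated arm.
miR-101c: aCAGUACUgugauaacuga
All 19 of its bases lie inside miR-101a-3p, and the full 21 bases of miR-101a-3p differ from the Mir101c hairpin only at their ends, U1C and A21U. Mir101c had 0 counts in both libraries. For reads that match no other place, this allows up to 0.568 CPM in replicate 2 and 0.681 CPM in replicate 1. CPM are own-strand counts scaled to 1000000 counts on microRNA genes, and these limits take 3 counts as what a count of 0 allows. Reads that match several places enter no gene's count, so a read of 19 bases or fewer from this stretch would be lost to both genes. The count of Mir101a is uncertain to that extent, and the size of any such loss was not tested. Reads of the 19-base arm of Mir101c could not be counted at all, so the 0 does not limit the level of that arm. The arms of Mir101b matched no other gene exactly among 141767 annotated transcripts. Those of Mir101a matched otherwise only its own host transcript, and copies outside annotated transcripts were not searched.

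The genes lie in unlike hosts. Mir101a (ENSMUSG00000065451.1) is at chr4:101346945-101347027 on the minus strand of mm10. It lies in exon 2 of a transcript of the long noncoding RNA E130102H24Rik, on the same strand, and outside another transcript of that gene. Mir101b (ENSMUSG00000065556.1) is at chr19:29135279-29135375 on the plus strand, in the intron between exons 8 and 9 of Rcl1, a protein-coding gene known for its role in ribosomal RNA processing. The nearest protein-coding genes outside the hosts are related to each other. Mir101a has the Janus kinase gene Jak1 81.7 kb away on one side and the adenylate kinase gene Ak4 72.2 kb away on the other. Mir101b has Jak2 at 116 kb and Ak3 at 87.3 kb. No other annotated microRNA gene lies within 10 kb of either gene.

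Replicate 2 gave 5279877 counts on microRNA genes and replicate 1 gave 4404040, which were 34.6% and 35.3% of their reads. Reads that match several places were 46.5% of replicate 2 and 40.3% of replicate 1. The labelled tissue was checked against marker genes. The 5 neuronal markers summed to 91852 CPM in replicate 2 and 86988 CPM in replicate 1. Most of that was Mir127 at 57832 and 55133 CPM, and the others were less even. Mir128-1 stood at 11949 and 5440 CPM, Mir129-2 at 2208 and 647 CPM and Mir138-2 at 2612 and 1934 CPM. Mir132 went the other way, at 17251 and 23835 CPM. The liver marker Mir122 stood at 27.7 and 30.2 CPM. Of the 3 muscle markers, Mir1a-1 and Mir133a-1 were at 0, while Mir206 stood at 107 CPM in replicate 2 and 98.1 CPM in replicate 1, above Mir101a. The 2 oligodendrocyte markers summed to 5649 and 5809 CPM and the 2 astrocyte markers to 13693 and 11203 CPM. The astrocyte markers went opposite ways, with Mir29a at 12370 and 8686 CPM and Mir21a at 1324 and 2517 CPM. Microglia and leukocyte markers summed to 5414 and 3396 CPM. Most of that was Mir342 at 4319 and 2507 CPM. Mir150 stood at 999 and 832 CPM, Mir142 at 84.1 and 54.0 CPM and Mir223 at 11.6 and 3.18 CPM. The choroid plexus marker Mir204 stood at 1206 and 683 CPM. The 3 vessel wall markers summed to 43835 CPM in replicate 2 and 16250 CPM in replicate 1. That gap lies in 1 gene, the endothelial Mir126a at 37937 and 9730 CPM, whereas Mir143 stood at 5658 and 6311 CPM and Mir145a at 241 and 209 CPM.

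Both genes were expressed at moderate to low levels, and Mir101a stood well under Mir101b in each library. Mir101a had 401 counts in replicate 2, or 75.9 CPM (95% Wilson interval 68.9 to 83.8), and 348 counts in replicate 1, or 79.0 CPM (71.1 to 87.8). Its libraries overlap in their intervals, and its mean was 77.5 ± 2.17 CPM (SD, n = 2). Mir101b had 2883 counts in replicate 2, or 546 CPM (526 to 566), and 2706 counts in replicate 1, or 614 CPM (592 to 638). Those intervals do not overlap, and replicate 2 is the lower library for Mir101b, whose mean was 580 ± 48.4 CPM (SD, n = 2). Reads made by PCR and not marked by molecular identifiers can repeat a molecule, so all intervals and limits here are for counting error alone.

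**Figure D1:**
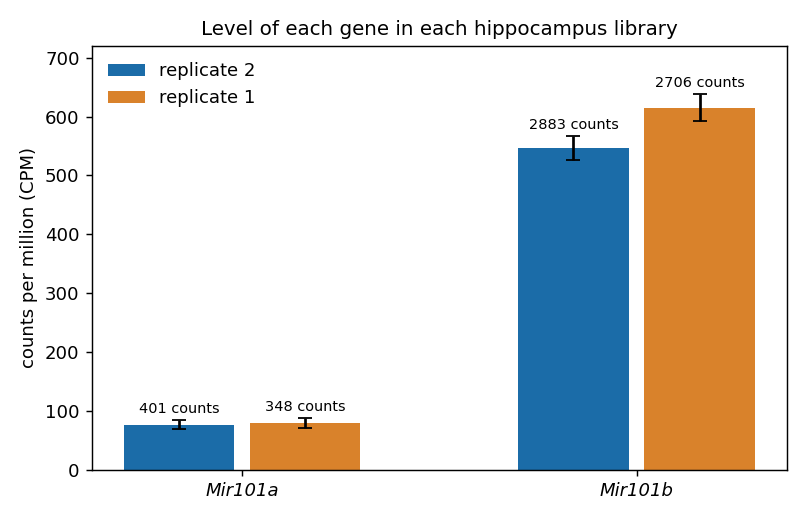
Level of Mir101a and Mir101b in CPM in each library, with replicate 2 in blue left of replicate 1 in orange. Bars are single libraries, error bars are 95% Wilson intervals for counting error, and the raw count stands above each bar; both Mir101a bars lie under 100 CPM and both Mir101b bars over 500 CPM.

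No read was counted on the opposite strand of either gene in either library. Together the genes held 3284 counts in replicate 2 (622 CPM, 601 to 644) and 3054 in replicate 1 (694 CPM, 669 to 719). That is 0.0622% and 0.0693% of all counts on microRNA genes. In bulk tissue fewer expressing cells and less RNA per cell cannot be told apart, so these levels do not say in which cells the genes were active.

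In the order of all 2202 genes by mean CPM, Mir101a was at rank 211 and Mir101b at rank 123. Scaled per hairpin base the ranks were 212 and 130. By library, Mir101a was at rank 216 in replicate 2 and 202 in replicate 1, and Mir101b at rank 124 and 116. Mir101a exceeded 70.0% of the 723 genes with a count in replicate 2 and 70.6% of the 687 in replicate 1, and Mir101b exceeded 82.8% and 83.1%. Reads that match several places are not counted, so genes that share sequence with other places can stand too low in this order. A higher rank of Mir101a or Mir101b therefore does not show that more of its mature microRNA was present. Differences from the neighbours in this order were not tested. Next to Mir101a were mmu-mir-3535 at 77.8 ± 40.0 CPM and Mir7-1 at 76.8 ± 0.913 CPM. Next to Mir101b were Mir673 at 606 ± 92.2 CPM and Mir16-1 at 569 ± 466 CPM (mean ± SD, n = 2).

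**Figure D2:**
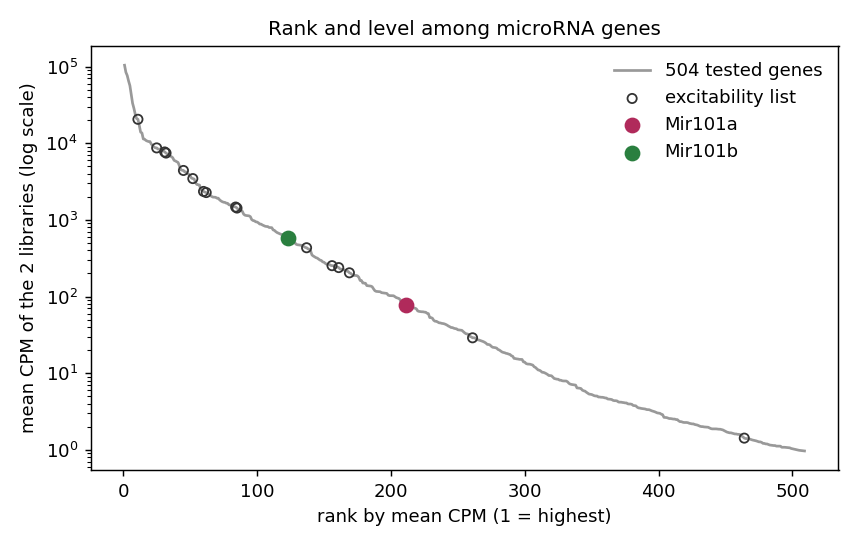
Mean CPM of the 2 libraries on a log scale against rank for the 504 genes with 10 or more counts in total. Mir101b (green, rank 123) and Mir101a (red, rank 211) are marked with the 16 genes of the excitability list (open circles), of which 10 lie above Mir101b and 2 below Mir101a.

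The genes with the most similar pair of levels were found by the distance of log2(CPM + 1) over the 2 libraries, a measure that with so few libraries mostly reflects the level. These levels also leave out reads that match several places. Nearest to Mir101a was Mir7-1, one of the miR-7 genes, at a distance of 0.029, with 402 counts in replicate 2 and 341 in replicate 1. Mir6540 followed at 0.081 and Mir449a, of the miR-34 and miR-449 family, at 0.30. Nearest to Mir101b were Mir673 at 0.13 with 2854 and 2955 counts, then Mir3099 and Mir501, both at 0.17.

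The balance between the genes was nearly the same in both libraries. Mir101a had 0.139 times the counts of Mir101b in replicate 2 (95% exact binomial interval 0.125 to 0.154) and 0.129 times in replicate 1 (0.115 to 0.144). Mir101a thus made up 12.2% and 11.4% of the counts of the pair. The mean ratio was 0.134 ± 0.00742 (SD, n = 2). Per hairpin base, with 83 bases in Mir101a and 97 in Mir101b, the ratios were 0.163 and 0.150. The ratios were not shown to differ between the libraries in a two-sided Fisher's exact test (odds ratio 1.08, p = 0.33). A two-sided exact sign-flip test over 2 libraries cannot give a p below 0.5, and the level of Mir101a against Mir101b was therefore not tested across samples. How evenly the library preparation captures different sequences was not measured, and the loss of short reads shared with Mir101c stands beside this ratio as well.

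Set beside other families with a pair of genes in the excitability list, the split of the miR-101 counts was the most uneven of 5 in replicate 2 and the second most uneven in replicate 1. The gene with fewer counts held 12.2% of the pair in replicate 2 and 11.4% in replicate 1 for miR-101, where it is Mir101a. It held 13.7% and 16.2% for the Mir128 genes, where it is Mir128-2, and 14.5% and 16.8% for the Mir129 genes, where it is Mir129-1. For the Mir138 genes the lower gene, Mir138-2, held 33.8% and 34.2%, and for the Mir218 genes Mir218-1 held 12.5% and 8.62%. The pairs differ in sequence: each of these other 4 pairs has 1 identical mature arm and a shared run of 22 to 26 bases, whereas Mir101a and Mir101b have no identical arm. Reads from an identical arm match both genes of a pair, so the splits of the other families are uncertain, and no difference in split was tested.

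**Figure D3:**
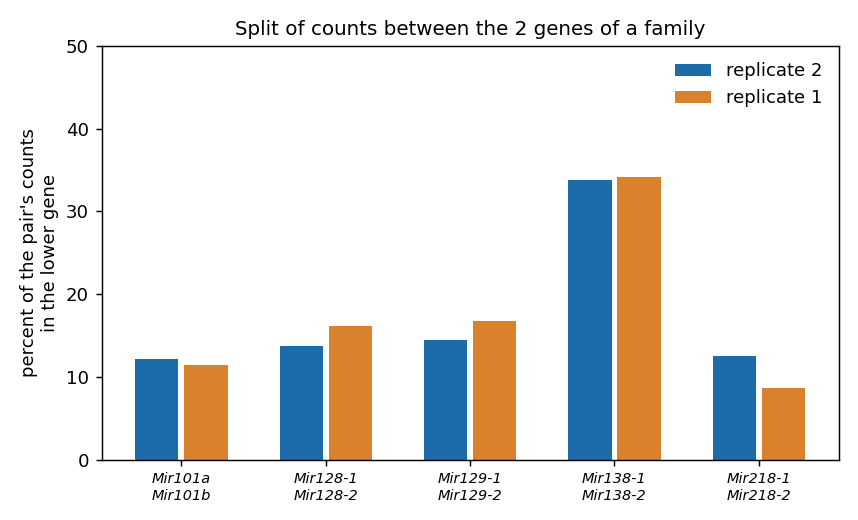
Percent of each pair's counts in the gene with fewer counts, for Mir101a with Mir101b and 4 other families, with replicate 2 in blue left of replicate 1 in orange. Each bar is 1 library and has no error bar; the miR-101 bars stand at 12.2% and 11.4%, above the lowest bar of all (Mir218 genes in replicate 1, 8.62%) and far under the highest (Mir138 genes, 34.2%).

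Between the libraries, Mir101a was not shown to differ and Mir101b was slightly lower in replicate 2. Each gene was compared between the libraries by an exact conditional binomial test, two-sided, on scaled library sizes. Benjamini-Hochberg adjustment covered the 504 genes whose counts summed to 10 or more. Of these, 55.8% passed an adjusted p of 0.05, with 32.5% higher and 23.2% lower in replicate 2. Mir101a had a log2 ratio of replicate 2 over replicate 1 of -0.07 (adjusted p = 0.61, exact binomial). It was -0.12 with DESeq2 size factors (adjusted p = 0.342, exact binomial). Mir101b had a log2 ratio of -0.19 (adjusted p = 3.43e-06, exact binomial), or 0.878 times the level of replicate 1. The Fisher's exact test above, which sets these shifts against each other, did not show that the genes differ in shift. The call of Mir101b counts reads and not animals: with a coefficient of variation of 0.1 between libraries built into the test, where 30.2% of the genes passed, its adjusted p was 0.553. With a minimum of 100 counts, which moved the median of all tested genes by -0.12, the ratio of Mir101a was -0.21 (adjusted p = 0.0621, exact binomial) and that of Mir101b -0.32.

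Both genes were among the more even of the tested genes. The CPM of Mir101a had a coefficient of variation of 2.80% over the libraries and that of Mir101b 8.34%, where the median over the 504 tested genes was 24.9%. A smaller absolute log2 ratio was found in 41 of the 504 genes (8.13%) for Mir101a and in 113 (22.4%) for Mir101b. Among the 313 tested genes with 100 or more counts the shares were 7.99% and 20.4%. The ratios are descriptions of this pair of libraries.

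**Figure D4:**
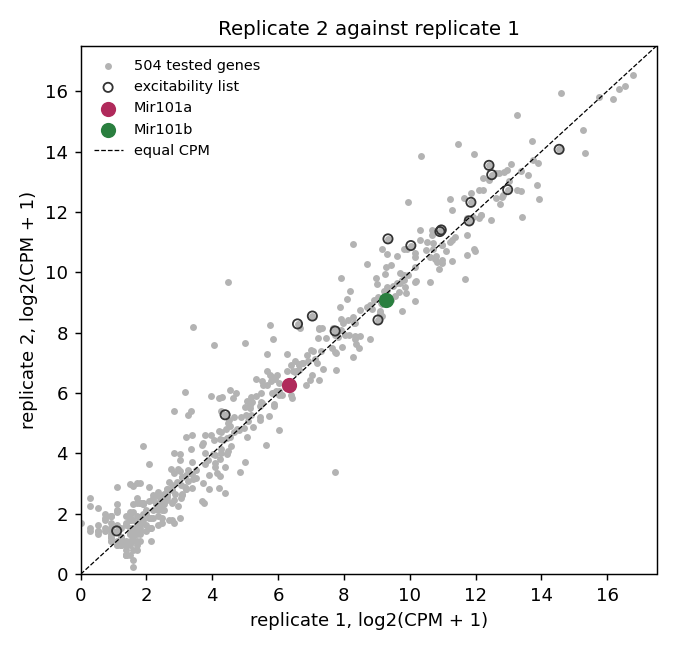
Log2(CPM + 1) in replicate 2 (vertical) against replicate 1 (horizontal) for the 504 tested genes in grey, the excitability list as open circles, Mir101a in red and Mir101b in green. Both miR-101 points lie close to the dashed line of equal CPM, Mir101b a little under it.

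The seed core of miR-101, ACAGUA, is rare among mature arms, and Mir101b held most counts of the genes that carry it. Gene counts do not tell the arms apart, so the amount of the core itself was not measured. Of 1738 mature sequences in the RefSeq table, 3 (0.173%) hold it at bases 2 to 7 or 3 to 8, namely miR-101a-3p, miR-101b-3p and miR-144-3p. The last is from Mir144, a gene of the red blood cell lineage.
miR-144-3p: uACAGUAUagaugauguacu
Its seed differs from that of miR-101a-3p in the last base alone. Mir144 had 201 counts in replicate 2 and 38 in replicate 1 (38.1 and 8.63 CPM), a log2 ratio of 2.00 (adjusted p = 4.92e-21, exact binomial). The libraries of Mir144 lie far apart, unlike those of the miR-101 genes, while the other red blood cell markers were closer, Mir451a at 57.6 CPM in replicate 2 and 35.2 CPM in replicate 1 and Mir486 at 17.8 and 22.9 CPM. With a coefficient of variation of 0.3 its adjusted p was 0.0872. Of the summed counts of the 3 genes, Mir101b held 82.7% in replicate 2 and 87.5% in replicate 1, Mir101a 11.5% and 11.3%, and Mir144 5.77% and 1.23%. The same 6 bases stand at bases 1 to 6 in 4 other sequences. They are miR-101c and the 3p arms of Mir199a-1, Mir199a-2 and Mir199b, mesenchymal genes chosen here after their values were seen. Mir101c had 0 counts, but reads of miR-101c also match Mir101a and enter no count. The Mir199 genes had from 0 to 2 counts in each library. Their 3p arms are identical, so reads that match several of these genes are not counted.

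Other microRNA genes with known effects on neuronal excitability or synaptic strength mostly had higher counted levels than the miR-101 genes. The list of 16 genes was chosen with earlier results of these data known. Of these, 10 stood above Mir101b in both libraries and 14 above Mir101a by mean CPM. Per hairpin base 11 stood above Mir101b and 2 below Mir101a. The median of the list was 1872 CPM. The highest was Mir132, which follows neuronal activity and shapes dendrites, at 17251 CPM in replicate 2 and 23835 CPM in replicate 1. Mir128-1, of a family whose loss causes seizures in mice, stood at 11949 and 5440 CPM. Mir137, which acts on presynaptic vesicle release, stood at 9634 and 5765 CPM. Mir138-1, of a family that limits the growth of dendritic spines, had 5114 and 3717 CPM. Between Mir101a and Mir101b in level was Mir134, a regulator of spine size through Limk1, at 342 and 524 CPM. So were Mir129-1 at 375 and 131 CPM, Mir218-2 at 265 and 212 CPM and Mir153 at 313 and 95.4 CPM. The lowest was Mir211 with 9 and 5 counts. Within the Mir128, Mir129, Mir138 and Mir218 pairs the genes share an identical mature arm. Reads of that arm match both genes and enter no count. The levels of these genes and the list median leave such reads out, and the amount left out was not measured.

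Most genes of the list differed between the libraries, more of them higher than lower in replicate 2. Of its 16 tested genes 11 were higher in replicate 2, 4 were lower and 1, Mir211, did not pass the exact binomial test (adjusted p = 0.711), against the 32.5% higher and 23.2% lower over all tested genes. With a minimum of 100 counts the test called 252 of 313 genes, 122 higher and 130 lower. It called all 15 list genes that reached this minimum, 11 higher and 4 lower. Genes with more counts pass this test more readily. The Mir128, Mir129, Mir138 and Mir218 families enter the list with 2 genes each, and both genes of each pair were among those higher. These numbers therefore count genes and not separate families. The median log2 ratio of the list was 0.44 and that of all tested genes 0.05. The highest ratios were those of Mir129-2 at 1.75 and Mir129-1 at 1.49, genes of a family needed for homeostatic synaptic downscaling, and of Mir153, a regulator of neurotransmitter release, at 1.68. With either-strand counts, which hold 8 counts of Mir129-2 in replicate 2 and 7 in replicate 1, its ratio was -0.02 (adjusted p = 1.0, exact binomial). The other genes that were higher were Mir128-1 (1.12), Mir218-1 (0.87), Mir128-2 (0.84), Mir137 (0.72), Mir138-1 (0.44), Mir485 (0.43), Mir138-2 (0.42) and Mir218-2 (0.31). Lower in replicate 2, as Mir101b was, were Mir134 (-0.63), Mir132 (-0.48), Mir324 (-0.26), known to target the potassium channel Kv4.2, and Mir335 (-0.12). With a coefficient of variation of 0.1 in the test 7 genes were higher and 1 was lower, against 19.4% and 10.7% of all tested genes. With 0.3, where 2.78% of all tested genes passed, 2.58% higher and 0.198% lower, no gene of the list passed the beta-binomial test. At that setting 3 of its 16 genes had an unadjusted p under 0.05, against 54 of all 504 tested genes. The part of Mir126a, Mir204 and the microglia and leukocyte markers, which also stood higher in replicate 2, in these ratios was not tested.

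**Figure D5:**
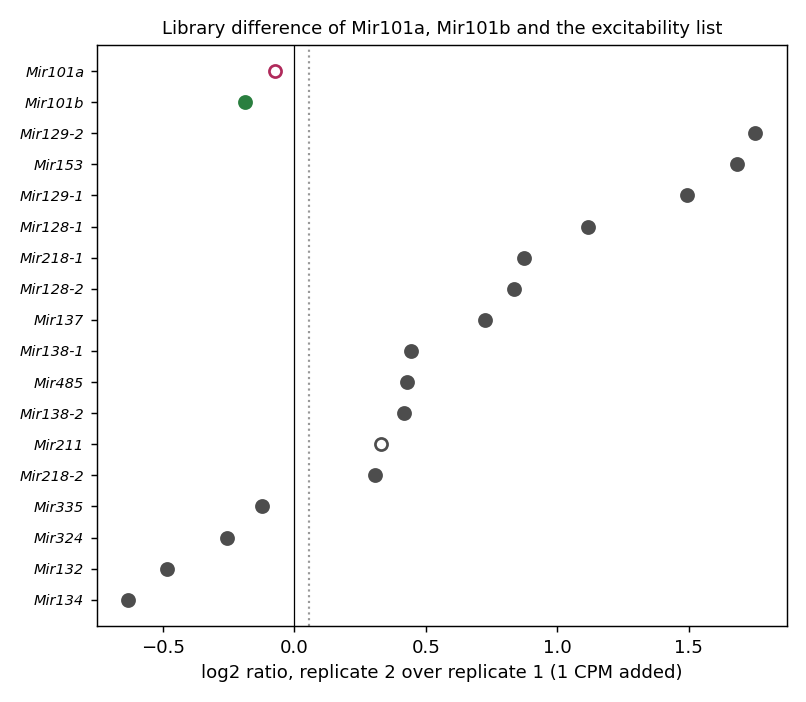
Log2 ratio of replicate 2 over replicate 1, with 1 CPM added, for Mir101a (red) and Mir101b (green) above the 16 genes of the excitability list (dark grey). Filled points passed the exact binomial test and open points did not; the solid line is 0 and the dotted line the median of all tested genes, 0.05. Mir101a and Mir101b stand at -0.07 and -0.19, while the list runs from -0.63 to 1.75.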

How the data were processed

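The authors deposited whole-number counts for each microRNA gene, with no normalization. The deposited notes name mm10 and GENCODE M21 as build and annotation, and no aligner is named: it is not given in the sources used here. Columns carry no names. Their layout (either strand, own strand, opposite strand) was read from the values, and own-strand counts were used. The lines that name no gene held 65.4% of replicate 2 and 64.7% of replicate 1 and were left out. All 2202 identifiers matched GENCODE M21.

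CPM is the count over the library's own-strand total, times 1000000. Log2 ratios add 1 CPM and use TMM library sizes (edgeR 4.0.16, R 4.3.3, factors 1.01 for replicate 2 and 0.994 for replicate 1). The exact conditional binomial test and Fisher's test used scipy 1.17.1, with Benjamini-Hochberg adjustment at 0.05 over genes whose counts summed to 10 or more. The procedure was tested on simulated counts. With 1 group there is no contrast for the quasi-likelihood test of edgeR. DESeq2 1.42.0 gave alternative size factors. The common dispersion of edgeR gave a coefficient of variation of 0.43 between the libraries.

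The members and gene lists were chosen with earlier results of these data known. Named genes are the members, the excitability list, genes with the seed core, annotated microRNA genes within 10 kb and the 3 genes nearest in level to each member. Alternatives were the either-strand counts, other denominators, other scalings, minimums of 1 and 100 counts, a pseudocount of 0.5 CPM, added spread between libraries, counts per hairpin base and each library alone. The effect of CAST/EiJ alleles on mapping was not tested. Sequences are from RefSeq on GRCm38.p6. Tables were made with pandas 2.3.3 and numpy 2.4.6 in Python 3.11.15, and figures with matplotlib 3.10.9.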

Additional observations from a re-analysis of the deposited data

How the results depend on the processing

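The levels follow the denominator. With either-strand counts, whose total is smaller, the mean was 84.3 CPM for Mir101a and 631 CPM for Mir101b. Scaled to 1000000 reads of any kind they were 27.1 and 203, and without the 10 highest genes in the denominator 168.1 and 1262. Leaving out each library gave 75.95 to 79.02 CPM for Mir101a and 546 to 614.4 CPM for Mir101b. The ratio of Mir101a to Mir101b was 0.156 per hairpin base, 0.134 with either-strand counts, and 0.129 to 0.139 with each library left out. The log2 ratio of Mir101a kept its sign and stayed above the threshold of 0.05 in all 8 alternatives (adjusted p 0.0621 to 1.0). That of Mir101b stayed negative in 8 and past the threshold in 6. With a coefficient of variation of 0.1 or 0.3 in the test its value was -0.19 and its adjusted p 0.553 and 0.99. The calls over all genes were 152 and 14 with those settings, against 281, and 8 and 0 in the excitability list, against 15. At 0.3 the beta-binomial test gave 3 of the 16 list genes an unadjusted p under 0.05, against 54 of the 504 tested genes. With either-strand counts, which set aside reads where genes overlap on opposite strands, the ratio of Mir129-2 was -0.0195 on a few counts. Leaving out a library gives no test between libraries. No paired analysis was possible because there is 1 group. With 348 to 401 counts, the depth leaves Mir101a less precise than Mir101b, and the spread over animals is not known from 2 libraries.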
